A study of Arabidopsis thaliana with 42 samples.

Results

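The chloroplast genome of Arabidopsis thaliana carries 45 genes, of the 25069 loci in the deposited count table, whose products belong to the photosynthetic complexes or to Rubisco. They were taken by their locus identifiers: 5 genes of photosystem I (psa), 15 of photosystem II (psb), 6 of the cytochrome b6f complex (pet), 6 of the ATP synthase (atp), 12 of the NDH complex (ndh, with ndhB present as 2 copies) and rbcL. All 45 had counts and passed the filter on low values. The table gives identifiers without symbols, so the symbols follow the public Arabidopsis locus nomenclature. As a check, a RefSeq gene list of assembly TAIR10.1 holds 45 plastid genes of these families, and in identifier order all 45 members carry the same symbol as those genes in genome order.

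Photosystem II splits water, the cytochrome b6f complex passes the electrons on and pumps protons, photosystem I reduces ferredoxin, and the ATP synthase uses the proton gradient. The NDH complex returns electrons from ferredoxin to the plastoquinone pool, and Rubisco, whose large subunit is encoded by rbcL, fixes carbon dioxide. These genes are transcribed inside the plastid, mostly as multi-gene units, by a bacterial-type plastid-encoded polymerase and a phage-type polymerase encoded in the nucleus, and their transcripts depend on nuclear-encoded proteins for processing and stability. In contrast to cytosolic mRNA, plastid mRNA carries no stable poly(A) tail, and a tail added in the plastid marks RNA for decay.

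The study asked how 2 DNA methylation pathways interact, and its RNA part compared 4 genotypes with 3 libraries each, all made from polyA RNA of 2-week-old seedlings that were kept cold for 7 days as seed and then grown at 22 °C with a 16 h day and an 8 h night. The genotypes were ddm1, which lacks a chromatin remodeller needed for DNA methylation in heterochromatin, and the double mutants ddm1nrpd1, ddm1nrpe1 (spelled ddm1npre1 in the labels) and ddm1cmt2. NRPD1 and NRPE1 are core subunits of the plant polymerases Pol IV and Pol V, which serve RNA-directed DNA methylation, and CMT2 is a chromomethylase. All 4 groups carry the ddm1 mutation, and no RNA library without it was used, so every change stands against ddm1 and not against wild type. The alleles are not given for the RNA samples.

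Total counts were 7.84 to 10.2 M (M, 1e+06 reads) in ddm1 and 14.9 to 24.8 M, 16.3 to 18.8 M and 10.8 to 18.1 M in ddm1nrpd1, ddm1nrpe1 and ddm1cmt2, so depth differed between groups. Transcript of NRPD1 stood at 5.74 ± 1.27 CPM (mean ± SD, n = 3) in ddm1 and 14.1 ± 0.725 in ddm1nrpd1, transcript of NRPE1 at 13.1 ± 1.08 in ddm1 and 58.7 ± 5.65 in ddm1nrpe1, and transcript of CMT2 at 31.8 ± 2.99 in ddm1 and 26.8 ± 1.08 in ddm1cmt2. With the lesions not given, these levels do not check the labels. Nothing says that replicates came from separate plants or pools, and the p-values reflect only the spread among the libraries at hand, which may be technical. As for the tissue, all 7 markers of green leaf were detected, with a summed level of 17526 to 19448 CPM in ddm1, 38013 to 45292 in ddm1cmt2, 16941 to 20674 in ddm1nrpd1 and 17689 to 26853 in ddm1nrpe1. By edgeR's test 1 of the 7 rose and 0 fell in ddm1nrpd1 (log2 fold changes -0.31 to 0.45). In ddm1nrpe1 4 rose and 1 fell (-0.86 to 0.89), and in ddm1cmt2 5 rose and 0 fell (0.06 to 1.94). Over all loci, 22.9%, 26.5% and 18.4% rose and 21.7%, 23.9% and 17.7% fell in that order. The summed level of 9 root markers was 234 to 275 CPM in ddm1, 266 to 332 in ddm1cmt2, 161 to 207 in ddm1nrpd1 and 175 to 208 in ddm1nrpe1. In ddm1nrpd1 the root hair genes LRX1, EXPA7, PRP3 and SHV2 were at or near 0 (0.0254, 0.0343, 0.105 and 0.0687 CPM). Of all 9 root markers, 6 fell and 0 rose in ddm1nrpd1 by edgeR's test (21.7% and 22.9% of all loci). Their log2 fold changes against ddm1 ran from -9.35 to 1.62. In ddm1nrpe1, 6 fell and 1 rose (23.9% and 26.5% of all loci), from -1.73 to 2.34. In ddm1cmt2, 0 fell and 1 rose (17.7% and 18.4%). The part of tissue makeup and of depth in the results that follow was not tested, and in seedling RNA fewer cells of a type and less RNA per cell cannot be told apart.

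Transcripts of the photosynthetic plastid genes captured in these polyA libraries stood at a small fraction of their ddm1 level in ddm1nrpd1 and ddm1nrpe1. They were less reduced in ddm1cmt2. Such libraries capture plastid RNA incompletely, so the values below are of captured reads. Reads on the 45 genes numbered 58193, 64198 and 85732 in the ddm1 libraries, 1617, 3501 and 1976 in ddm1nrpd1, 2439, 2794 and 1683 in ddm1nrpe1, and 34847, 57880 and 33613 in ddm1cmt2. The ddm1nrpd1 and ddm1nrpe1 libraries were low in spite of their greater depth, and no library of a double mutant reached the ddm1 range. The genes took 0.776% ± 0.0969 (SD, n = 3) of all counts in ddm1, against 0.0124% ± 0.00221, 0.0131% ± 0.00360 and 0.310% ± 0.0187 in ddm1nrpd1, ddm1nrpe1 and ddm1cmt2, respectively. The ddm1 share was thus 62.4, 59.2 and 2.51 times that of the 3 double mutants. Each difference gave p = 0.1 in a two-sided exact permutation test, which is the smallest value that 3 against 3 libraries allow.

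Gene by gene, 44 of the 45 fell in ddm1nrpd1 and 44 in ddm1nrpe1, each by at least 2-fold, and 32 fell in ddm1cmt2, 18 of them by at least 2-fold, at a Benjamini-Hochberg adjusted p under 0.05 over 24839 loci in edgeR's quasi-likelihood test. By the same test 0 rose in any of the 3 comparisons (22.9%, 26.5% and 18.4% of all loci did), and 0 rose at an unadjusted p under 0.05, by DESeq2 or by limma-voom. Across all loci tested, 21.7% fell in ddm1nrpd1, 23.9% in ddm1nrpe1 and 17.7% in ddm1cmt2, and 6.3%, 7.66% and 4.68% fell by at least 2-fold. The median log2 fold change of the members was -3.23 in ddm1nrpd1 (range -9.29 to -1.12), -3.24 in ddm1nrpe1 (-9.50 to -0.93) and -0.92 in ddm1cmt2 (-1.58 to 0.01), beside medians of 0.00, 0.01 and 0.00 over all loci. The 3 ddm1 libraries serve as control in all 3 comparisons, so their values are given side by side and are not independent of each other. All 45 genes were lower in every ddm1nrpd1 and every ddm1nrpe1 library than in every ddm1 library (against 27.6% and 28.3% of all loci), and 35 were in ddm1cmt2 (against 23.3%). The plot of fold changes in identifier order shows these values for each gene.

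**Figure D1:**
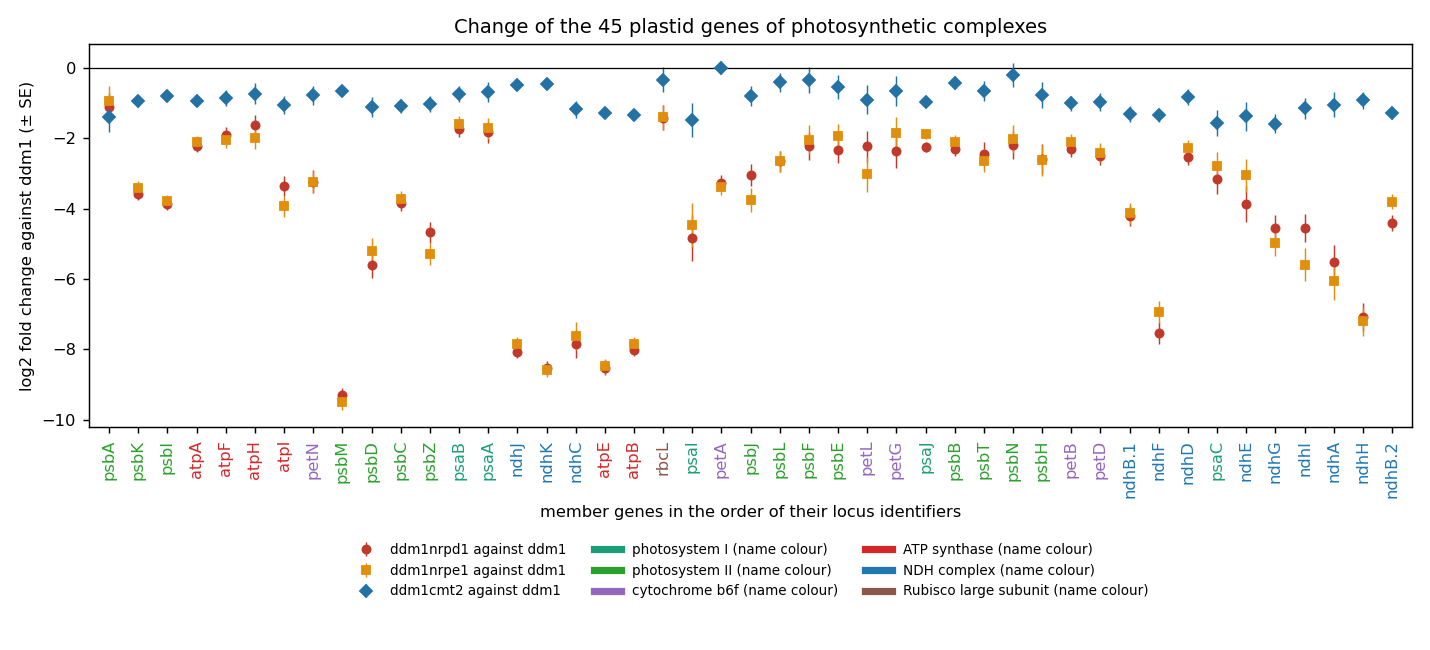
Log2 fold change against ddm1 (y axis, ± SE, 3 libraries a group) of the 45 plastid genes, in the order of their locus identifiers (x axis), for ddm1nrpd1 (circles), ddm1nrpe1 (squares) and ddm1cmt2 (diamonds); the colour of a name gives its complex. Values of ddm1nrpd1 and ddm1nrpe1 run from -9.50 to -0.93 and lie close to each other gene by gene, whereas those of ddm1cmt2 stay between -1.58 and 0.01.

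The falls in ddm1nrpd1 and ddm1nrpe1 were far from uniform. In ddm1nrpd1, 8 genes fell by more than 7 on the log2 scale (psbM, ndhK, atpE, ndhJ, atpB, ndhC, ndhF and ndhH), psbD and ndhA by 5 to 7, 15 genes by 3 to 5, and the other 20 members lay between -3 and -1. In ddm1nrpe1, 7 of those 8 genes lay below -7 again, with ndhF at -6.93. In ddm1cmt2 the same 8 genes lay between -1.35 (atpB) and -0.46 (ndhK).

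The make-up of the plastid reads changed with the total. The genes atpB, atpE and psbM, singled out after their values had been seen, held 83.3% to 86.3% of the member counts of a ddm1 library and 78.8% to 80.2% in ddm1cmt2, but 13.1% to 26.6% in ddm1nrpd1 and 15.5% to 25.5% in ddm1nrpe1. Conversely, psbA and rbcL together held 1.20% to 1.53% in ddm1, 1.77% to 1.92% in ddm1cmt2, 26.6% to 40.8% in ddm1nrpd1 and 23.3% to 39.8% in ddm1nrpe1. This pair had the smallest falls of all members in ddm1nrpd1 and ddm1nrpe1, so its larger share there follows from the choice of genes. The falls did not rest on atpB, atpE and psbM alone, since the other 42 genes took 0.120% ± 0.0181 of all counts in ddm1 and 0.0102% ± 0.00261, 0.0108% ± 0.00356 and 0.0632% ± 0.00557 in the double mutants in the same order. By complex, the ATP synthase genes held 77.1% ± 2.03 of member counts in ddm1 against 24.4% ± 7.18 and 23.8% ± 6.28 in ddm1nrpd1 and ddm1nrpe1, and photosystem I genes 0.880% ± 0.141 against 12.9% ± 0.541 and 14.7% ± 3.25.

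**Figure D2:**
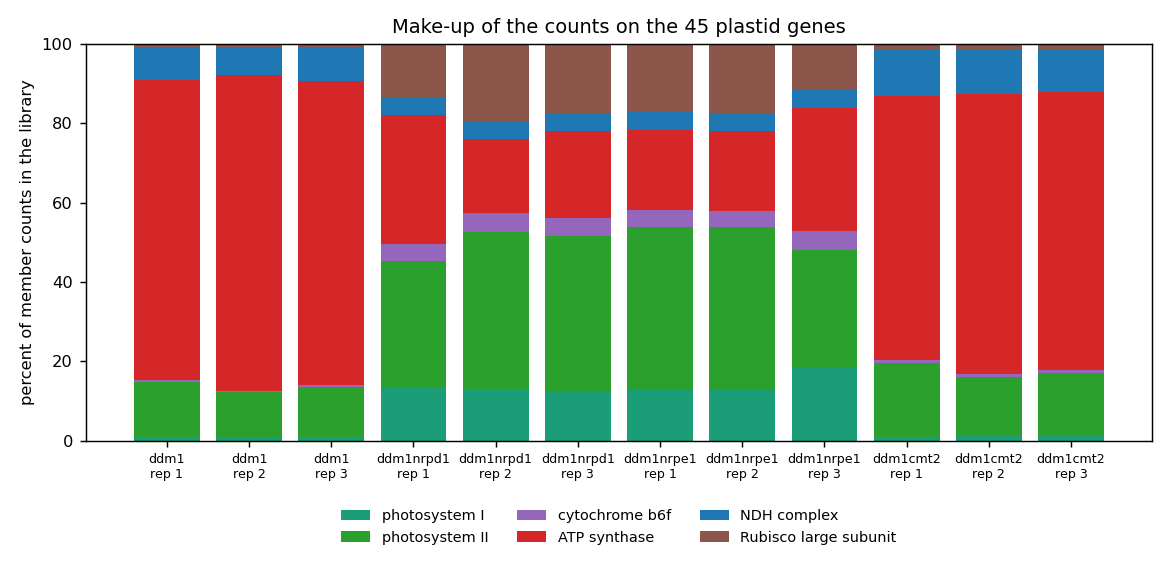
Percent of the counts on the 45 plastid genes that fell on each complex (y axis), 1 stacked bar for each of the 12 libraries. The ATP synthase segment holds most of the bar in ddm1 and ddm1cmt2 (means 77.1% and 69.0%) and about as much as photosystem II or less in ddm1nrpd1 and ddm1nrpe1, where the photosystem I and rbcL segments are wide.

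The ATP synthase genes held most of the member reads in ddm1 and some of the deepest falls. For atpB (ATCG00480), which encodes the catalytic beta subunit, the level was 3291, 4232 and 4226 TMM-normalised CPM in the 3 ddm1 libraries, 17.9, 12.7 and 14.9 in ddm1nrpd1, 16.7, 17.6 and 17.03 in ddm1nrpe1 and 1505, 1676 and 1438 in ddm1cmt2. The 6 ddm1nrpd1 and ddm1nrpe1 libraries lay within a narrow band far below the rest, and the ddm1cmt2 libraries lay between them and ddm1 without overlap. The log2 fold changes of atpB against ddm1 were -8.02 ± 0.18 (± SE, adjusted p = 3.9e-14) in ddm1nrpd1, -7.84 ± 0.18 (4.49e-14) in ddm1nrpe1 and -1.35 ± 0.13 (1.48e-06) in ddm1cmt2.

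The neighbouring atpE (ATCG00470), for the epsilon subunit of the catalytic head, overlaps atpB and moved with it. It stood at 1500.5, 2029 and 2027 CPM in ddm1, 813, 789.8 and 689 in ddm1cmt2, 6.52, 3.93 and 4.799 in ddm1nrpd1 and 4.73, 5.73 and 5.07 in ddm1nrpe1. Its log2 fold changes were -8.53 ± 0.21 (adjusted p = 7.9e-14), -8.48 ± 0.21 (7.85e-14) and -1.28 ± 0.15 (9.18e-06). The remaining 4 genes of the enzyme form another unit, in the order atpI, atpH, atpF, atpA, and fell much less, from -3.36 (atpI) to -1.62 (atpH) in ddm1nrpd1. For atpH (ATCG00140), which encodes the membrane ring subunit, the level was 4.06, 4.94 and 4.81 CPM in ddm1, 2.62, 2.01 and 3.83 in ddm1cmt2, 1.35, 1.94 and 1.04 in ddm1nrpd1 and 1.48, 1.27 and 0.701 in ddm1nrpe1. The atpH libraries of the 3 double mutants all lay below ddm1, but the change in ddm1cmt2 did not pass the test (-0.73 ± 0.29, adjusted p = 0.0637). That p was 0.0443 without ddm1nrpe1 replicate 3 and 0.0215 without ddm1cmt2 replicate 3.

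**Figure D3:**
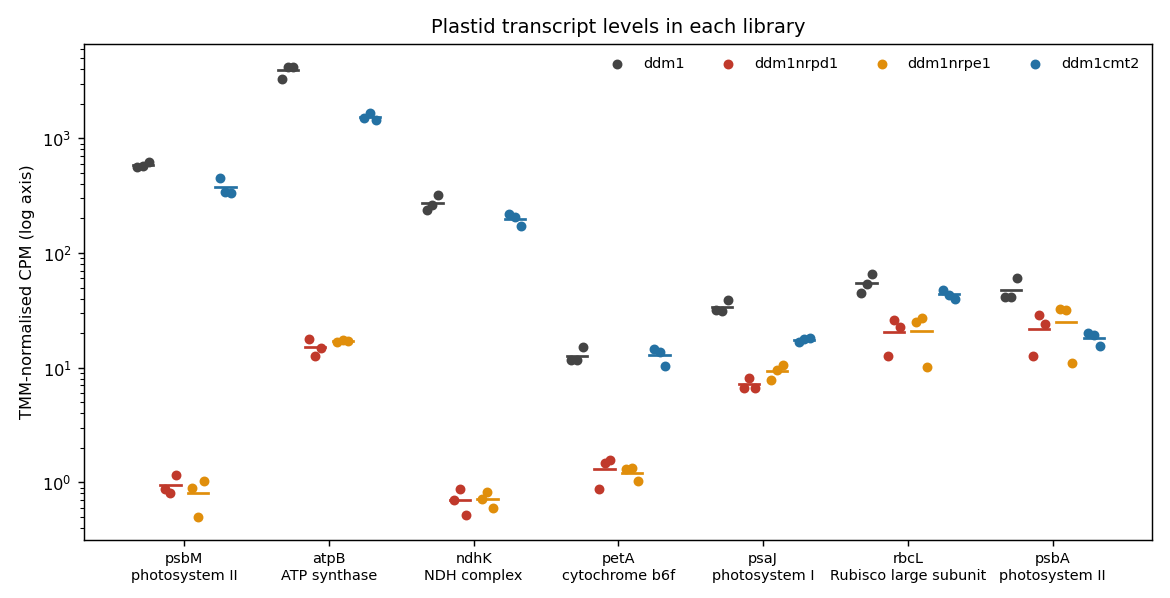
TMM-normalised CPM (y axis, log scale) of 7 plastid genes in each library (points) with the group mean (line), for ddm1, ddm1nrpd1, ddm1nrpe1 and ddm1cmt2. The 6 points of ddm1nrpd1 and ddm1nrpe1 lie more than 2 orders of magnitude below ddm1 for psbM, atpB and ndhK and less than 1 order below it for rbcL and psbA.

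Of the 15 photosystem II genes, 14 fell in ddm1nrpd1 (median of the 15 -2.65), 14 in ddm1nrpe1 (-2.65) and 8 in ddm1cmt2 (-0.77). Counts by complex, here and below, stand beside 21.7%, 23.9% and 17.7% of all loci that fell in ddm1nrpd1, ddm1nrpe1 and ddm1cmt2. In ddm1cmt2 the call of psbJ (adjusted p = 0.0333 by edgeR's test) was lost in several leave-one-out fits (0.0594 to 0.110). The widest change of all 45 members was that of psbM (ATCG00220), a small subunit at the dimer interface, with 568, 578 and 616 CPM in ddm1, 454, 344 and 333 in ddm1cmt2, 0.881, 0.801 and 1.17 in ddm1nrpd1 and 0.887, 0.496 and 1.02 in ddm1nrpe1. In reads, psbM had 4680 to 6406 in a ddm1 library and 9 to 21 in a ddm1nrpd1 or ddm1nrpe1 library. Its log2 fold changes were -9.29 ± 0.21 (adjusted p = 3.9e-14), -9.50 ± 0.21 (4.49e-14) and -0.64 ± 0.13 (0.0014), which are falls of 628-fold, 724-fold and 1.56-fold.

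The other end of the range was psbA (ATCG00020), which encodes the D1 reaction centre protein that is damaged by light and steadily replaced. Its level was 41.1, 40.99 and 60.5 CPM in ddm1, 19.9, 19.2 and 15.4 in ddm1cmt2, 12.6, 28.5 and 24.2 in ddm1nrpd1 and 32.5, 31.7 and 10.9 in ddm1nrpe1. The groups did not overlap with ddm1, but ddm1nrpd1 replicate 1 and ddm1nrpe1 replicate 3 were well below the other libraries of their groups. The changes in ddm1nrpd1 (-1.12 ± 0.42, adjusted p = 0.0547) and ddm1nrpe1 (-0.93 ± 0.42, 0.0911) did not pass the test, and that in ddm1cmt2 did (-1.39 ± 0.43, 0.0326). Without ddm1nrpe1 replicate 3 the adjusted p for psbA in ddm1nrpd1 was 0.00845, and without ddm1 replicate 3 or any of the ddm1cmt2 libraries that in ddm1cmt2 was 0.065 to 0.102.

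Genes for the core of photosystem II lay between these ends. The D2 protein gene psbD fell in ddm1nrpd1 (-5.61 ± 0.37) and in ddm1nrpe1 (-5.20 ± 0.36), as did psbC, for the CP43 antenna protein (-3.83 ± 0.23 and -3.74 ± 0.23). For psbB (ATCG00680), encoding the CP47 antenna protein, the level was 19.4, 19.1 and 26.9 CPM in ddm1, 18.5, 16.7 and 14.1 in ddm1cmt2, 3.94, 4.65 and 4.73 in ddm1nrpd1 and 5.09, 6.504 and 3.61 in ddm1nrpe1. The psbB levels of ddm1nrpd1 and ddm1nrpe1 were apart from ddm1 and the fall passed the test (-2.30 ± 0.20 and -2.11 ± 0.19), whereas the ddm1cmt2 libraries lay just below ddm1 and the change did not pass (-0.42 ± 0.18, adjusted p = 0.086, or 0.0437 without ddm1nrpe1 replicate 3). The assembly factor gene psbN (ATCG00700) had 1.21, 2.72 and 1.44 CPM in ddm1, 1.82, 1.34 and 1.46 in ddm1cmt2, 0.411, 0.343 and 0.389 in ddm1nrpd1 and 0.414, 0.606 and 0.27 in ddm1nrpe1. Its ddm1cmt2 libraries overlapped ddm1 (-0.21 ± 0.34, adjusted p = 0.669, and a log2 fold change of 0.19 with adjusted p = 0.733 without ddm1 replicate 2). Since psbN lies on the opposite strand within the psbB unit and the strand setting of the counts is not stated, its reads cannot be told apart from those of that unit.

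By edgeR's test all 12 genes of the NDH complex fell in each of the 3 double mutants, with medians of -5.03 in ddm1nrpd1, -5.83 in ddm1nrpe1 and -1.16 in ddm1cmt2. For ndhK (ATCG00430), a subunit of the electron-input arm, the level was 235, 264 and 322 CPM in ddm1, 220.2, 204 and 173 in ddm1cmt2, 0.705, 0.877 and 0.519 in ddm1nrpd1 and 0.71, 0.827 and 0.593 in ddm1nrpe1. All 6 ddm1nrpd1 and ddm1nrpe1 libraries were below 1 CPM, from 8 to 23 reads each, and those of ddm1cmt2 lay just under the lowest ddm1 library. The log2 fold changes of ndhK were -8.54 ± 0.20 (adjusted p = 3.9e-14), -8.58 ± 0.20 (5.05e-14) and -0.46 ± 0.13 (0.00933, or 0.05001 without ddm1cmt2 replicate 3). In ddm1cmt2 the calls of ndhA (adjusted p = 0.0359) and ndhE (0.0166) were each lost in several leave-one-out fits (up to 0.129 and 0.088, both without ddm1 replicate 3), and DESeq2 called 11 of the 12 NDH genes.

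Its neighbours in the same unit, ndhJ and ndhC, fell too (-8.08 ± 0.18 and -7.84 ± 0.40 in ddm1nrpd1, -7.83 ± 0.17 and -7.62 ± 0.40 in ddm1nrpe1). Of the same complex, ndhF (ATCG01010), for a large membrane subunit, was at 27.01, 35.2 and 36.4 CPM in ddm1, 14.4, 11.3 and 13.3 in ddm1cmt2, 0, 0.267 and 0.195 in ddm1nrpd1 and 0.355, 0.331 and 0.108 in ddm1nrpe1. The ddm1nrpd1 values for ndhC and ndhF rest on few reads, and without ddm1nrpd1 replicate 2 they were -8.70 and -8.34. Both copies of ndhB, which lie in the inverted repeat and have the same sequence there, moved alike (-4.21 and -4.40 in ddm1nrpd1, -1.30 and -1.28 in ddm1cmt2), and nothing states how the counting split their reads. The largest change in ddm1cmt2 was that of ndhG (ATCG01080), at 4.502, 4.07 and 6.06 CPM in ddm1, 1.21, 1.52 and 2.19 in ddm1cmt2, 0.235, 0.229 and 0.13 in ddm1nrpd1 and 0.118, 0.22 and 0.108 in ddm1nrpe1. All ddm1cmt2 libraries of ndhG lay well below ddm1 and well above the other double mutants (ddm1cmt2 against ddm1 -1.58 ± 0.27, adjusted p = 0.000304). The ndhG levels of ddm1nrpd1 and ddm1nrpe1 rest on 2 to 6 reads a library.

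All 5 photosystem I genes fell in ddm1nrpd1 and in ddm1nrpe1 and 4 fell in ddm1cmt2, with medians of -2.24, -1.88 and -0.96. The gene psaJ (ATCG00630), for a small membrane subunit, stood at 31.6, 31.4 and 39.2 CPM in ddm1, 16.9, 17.6 and 17.99 in ddm1cmt2, 6.64, 8.16 and 6.68 in ddm1nrpd1 and 7.81, 9.54 and 10.5 in ddm1nrpe1. The 4 groups of psaJ separated into ddm1 above ddm1cmt2 above the other 2, with log2 fold changes of -2.24 ± 0.14 (adjusted p = 4.64e-09), -1.88 ± 0.13 (2.43e-08) and -0.96 ± 0.13 (3.5e-05). The reaction centre genes psaA and psaB were among the 5 members with the smallest falls in ddm1nrpd1 and among the 4 in ddm1nrpe1.

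For psaB (ATCG00340) the level was 12.4, 12.1 and 17.8 CPM in ddm1, 6.36, 8.88 and 9.95 in ddm1cmt2, 3.47, 4.73 and 4.54 in ddm1nrpd1 and 5.26, 5.57 and 3.18 in ddm1nrpe1. Its libraries did not overlap between ddm1 and any double mutant (-1.73 ± 0.23, -1.60 ± 0.23 and -0.75 ± 0.22, adjusted p = 2.31e-05, 4.06e-05 and 0.0157), but the call in ddm1cmt2 was lost without ddm1 replicate 3 (0.0855) or ddm1cmt2 replicate 1 (0.0634). The gene psaC (ATCG01060), for the iron-sulphur subunit that hands electrons to ferredoxin, was at 3.62, 1.48 and 2.69 CPM in ddm1, 0.606, 0.973 and 1.004 in ddm1cmt2, 0.235, 0.381 and 0.195 in ddm1nrpd1 and 0.414, 0.496 and 0.216 in ddm1nrpe1. Each double mutant was below ddm1 for psaC without overlap (-3.16 ± 0.41, -2.79 ± 0.40 and -1.57 ± 0.37). The psaC levels of ddm1nrpd1 and ddm1nrpe1 rest on 3 to 10 reads a library. For psaI (ATCG00510), a small subunit near the light-harvesting dock, reads were few, with 12, 24 and 37 in ddm1, 1, 4 and 0 in ddm1nrpd1, 0, 3 and 3 in ddm1nrpe1 and 12, 8 and 14 in ddm1cmt2. The psaI values of -4.83 ± 0.65, -4.45 ± 0.63 and -1.48 ± 0.48 are therefore imprecise: without ddm1nrpd1 replicate 2 the value in ddm1nrpd1 was -6.05, and the call in ddm1cmt2 (adjusted p = 0.0235) was lost without ddm1 replicate 2 (0.0649) or 3 (0.118) or ddm1cmt2 replicate 2 (0.109).

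The cytochrome b6f complex had 6 of 6 genes fall in ddm1nrpd1 (median -2.43) and in ddm1nrpe1 (-2.71), and 3 of 6 in ddm1cmt2 (-0.84). Its petA (ATCG00540), which encodes cytochrome f, was at 11.6, 11.6 and 15.00 CPM in ddm1, 14.5, 13.7 and 10.4 in ddm1cmt2, 0.881, 1.49 and 1.56 in ddm1nrpd1 and 1.301, 1.32 and 1.02 in ddm1nrpe1. The ddm1cmt2 libraries of petA spread over the ddm1 range (0.01 ± 0.18, adjusted p = 0.97, -0.08 to 0.15 when single libraries were left out), while those of ddm1nrpd1 and ddm1nrpe1 were far below (-3.27 ± 0.21 and -3.39 ± 0.22). The genes petB and petD, for cytochrome b6 and subunit IV, fell in ddm1cmt2 as well (-1.01 ± 0.22 and -0.97 ± 0.25), as did petN (-0.78 ± 0.26), whose call was lost in 4 of the leave-one-out fits.

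The Rubisco large subunit gene rbcL (ATCG00490) lies next to atpB, is read in the opposite direction and changed far less. Its level was 44.5, 53.95 and 65.8 CPM in ddm1, 47.7, 43.2 and 39.7 in ddm1cmt2, 12.6, 25.9 and 22.8 in ddm1nrpd1 and 24.8, 27.1 and 10.2 in ddm1nrpe1. As for psbA, ddm1nrpd1 replicate 1 and ddm1nrpe1 replicate 3 were lowest, and the ddm1cmt2 libraries overlapped ddm1 at its lower edge. The fall of rbcL passed the test in ddm1nrpd1 (-1.41 ± 0.36, adjusted p = 0.0102) and ddm1nrpe1 (-1.41 ± 0.36, 0.00937), and not in ddm1cmt2 (-0.33 ± 0.35, 0.503).

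Genes transcribed together were next set side by side, in the order of transcription. Along the ndhH unit the falls became smaller step by step in ddm1nrpd1, from -7.08 at ndhH through -5.53 (ndhA), -4.54 (ndhI), -4.53 (ndhG), -3.86 (ndhE) and -3.16 (psaC) to -2.53 at ndhD. The ddm1nrpe1 values ran the same way, from -7.20 at ndhH to -2.28 at ndhD. No such run was seen in ddm1cmt2, where the 7 genes lay between -1.58 and -0.83. In ddm1cmt2 set directly against ddm1nrpd1, the 7 genes were higher by 6.17, 4.49, 3.39, 2.96, 2.48, 1.59 and 1.70 in the same order. That comparison leaves out the ddm1 libraries but uses the same ddm1nrpd1 libraries, so it is not independent of the values above. Reads were few on this unit (2 to 11 on ndhH in ddm1nrpd1 and 0 to 9 in ddm1nrpe1), and the ddm1nrpe1 value of ndhH was -7.90 without replicate 2 and -6.61 without replicate 3, and that of ndhI -6.47 without replicate 2. In ddm1 replicate 1 the 7 genes had 340, 202, 53, 41, 22, 33 and 37 reads in the same order. In ddm1nrpd1 replicate 1 they had 2, 1, 3, 4, 1, 4 and 13. Over the 45 members, log2 level in ddm1 and log2 fold change correlated at Pearson's r = -0.70 in ddm1nrpd1 and -0.69 in ddm1nrpe1. The ddm1 libraries enter both quantities, and the part of the ddm1 level in the run was not tested.

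Other units behaved differently. The 5 genes of the psbB unit (psbB, psbT, psbH, petB and petD) fell to a like extent, from -2.60 to -2.29 in ddm1nrpd1 and from -2.64 to -2.10 in ddm1nrpe1. Within the psbD unit, the ddm1nrpd1 values were -5.61 for psbD itself, -3.83 for psbC and -4.67 for psbZ, a small subunit gene. The psbE unit (psbE, psbF, psbL and psbJ, which encode cytochrome b559 and small subunits) had values from -3.05 to -2.21 in ddm1nrpd1 and from -3.75 to -1.94 in ddm1nrpe1. Without ddm1nrpe1 replicate 2 the value of psbF in ddm1nrpe1 moved from -2.04 to -2.76. Where genes overlap, as atpB with atpE and psbD with psbC, nothing states how shared reads were counted.

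**Figure D4:**
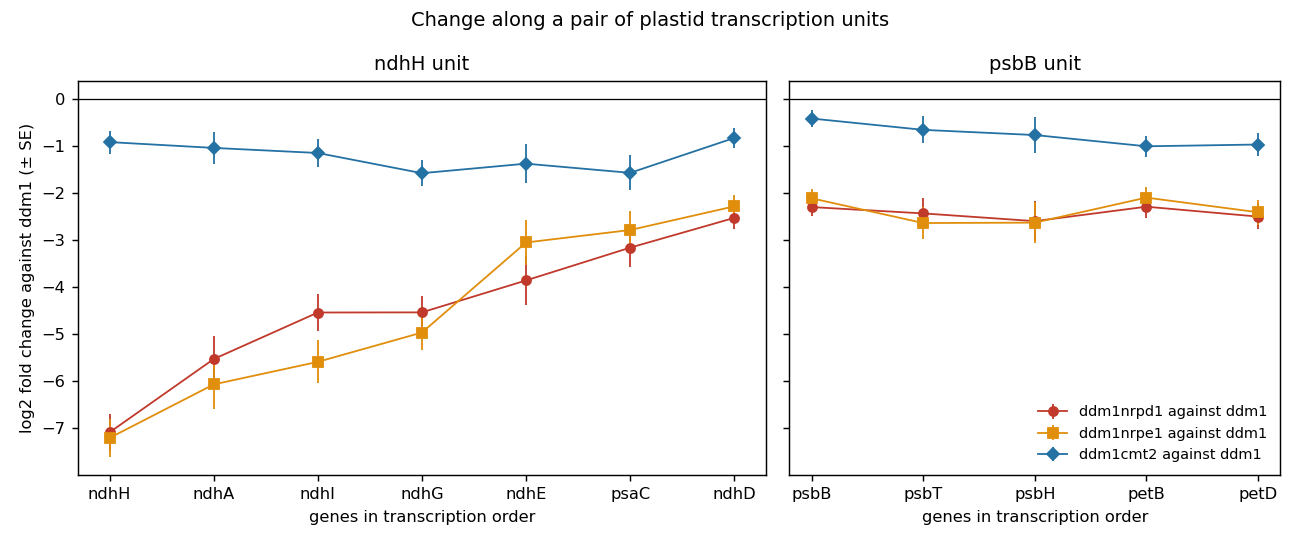
Log2 fold change against ddm1 (y axis, ± SE, 3 libraries a group) along the ndhH unit (left) and the psbB unit (right), with genes in the order of transcription (x axis). In ddm1nrpd1 and ddm1nrpe1 the ndhH unit runs from about -7 to about -2.5 while the psbB unit stays between -2.64 and -2.10; ddm1cmt2 stays above -1.58 in both.

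Between ddm1nrpe1 and ddm1nrpd1, 0 of the 45 genes differed by edgeR's test, while 16.4% of all loci fell and 19.7% rose. DESeq2 and limma-voom gave 0 as well, and 2 members had an unadjusted p under 0.05 by edgeR. The log2 differences ran from -1.05 (ndhI) to 0.81 with standard errors of 0.139 to 1.08. The smallest adjusted p was that of psaJ (0.36 ± 0.14, 0.0515), which rose with the replicate block (0.0484), without ddm1nrpd1 replicate 2 (0.0342) and without ddm1nrpe1 replicate 1 (0.0225). For atpB the difference was 0.18 ± 0.15 and for psbM -0.21 ± 0.30, and a missed threshold does not show that the groups are alike.

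In contrast, 44 of 45 genes were higher in ddm1cmt2 than in ddm1nrpd1 (26.0% of all loci rose), with a median of 2.32, and 44 were higher than in ddm1nrpe1 (26.9% of all loci), with a median of 2.46. The exception in both was psbA (-0.27 ± 0.43 against ddm1nrpd1, adjusted p = 0.635). Its ddm1cmt2 libraries lay within the range of the other double mutants. The widest gap was again that of psbM (8.65 ± 0.21 against ddm1nrpd1).

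Few nuclear genes for subunits of the same complexes fell. Of 44 nuclear subunit genes, 4 fell and 6 rose in ddm1nrpd1 (median 0.04), and 7 fell and 7 rose in ddm1nrpe1 (median -0.03). Across all loci tested, 21.7% fell and 22.9% rose in ddm1nrpd1, and 23.9% fell and 26.5% rose in ddm1nrpe1. The shares in ddm1cmt2 were 17.7% fallen and 18.4% risen. In ddm1cmt2, 31 rose and 1 fell (median 0.86), among them 12 of 12 photosystem I genes (median 1.11), 10 of 11 photosystem II genes (0.99) and 7 of 11 NDH genes (0.66). PSAD-2, a photosystem I subunit that docks ferredoxin, stood at 494 ± 65.3 CPM in ddm1, fell to 316 ± 22.4 in ddm1nrpd1 (-0.65 ± 0.13) and rose to 1247 ± 88.9 in ddm1cmt2 (1.33 ± 0.13). PSBTN, a small photosystem II subunit, rose in all 3 (0.61 ± 0.11, 0.63 ± 0.11 and 1.08 ± 0.11), and NdhT, of the NDH complex, rose in ddm1nrpd1 and ddm1cmt2 (0.99 ± 0.14 and 0.99 ± 0.14). Of the 5 genes for the Rubisco small subunit and its activase, 0 rose in any double mutant, while 0 fell in ddm1nrpd1 (median -0.05), 3 fell in ddm1nrpe1 (median -0.52) and RBCS1B fell in ddm1cmt2 (-0.93 ± 0.21). The summed level of green leaf markers, all of them nuclear genes and some of them antenna genes of the photosystems, was also higher in ddm1cmt2, as given above.

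**Figure D5:**
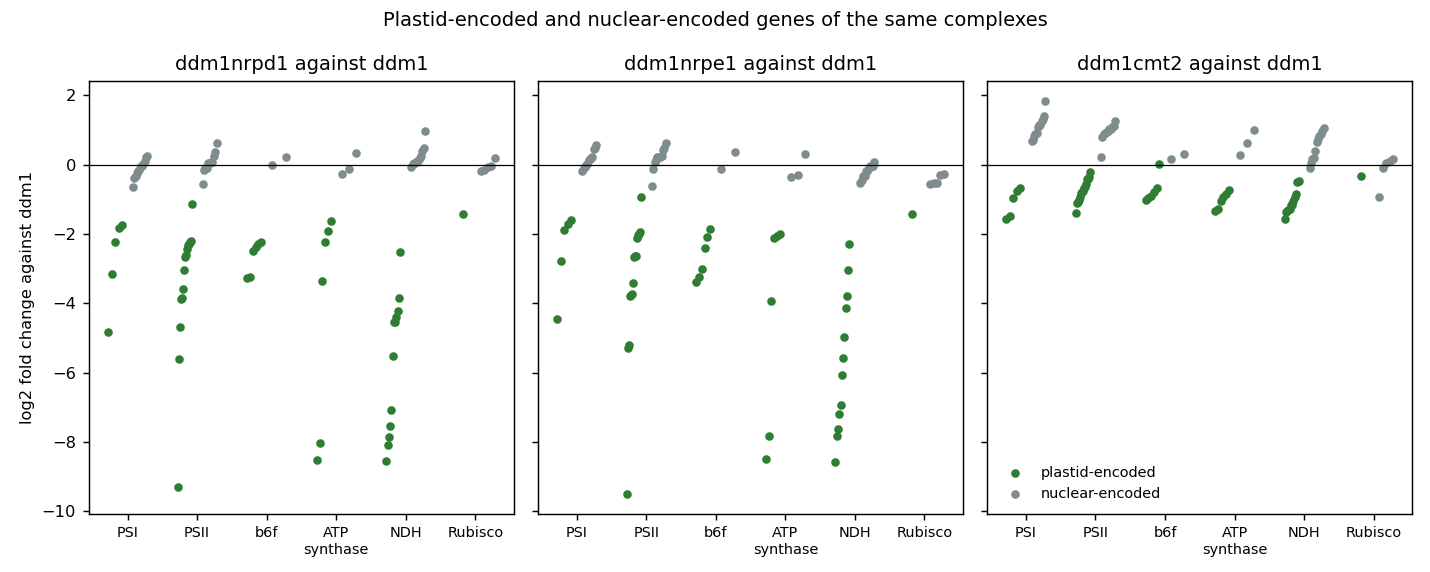
Log2 fold change against ddm1 (y axis) of plastid-encoded (green) and nuclear-encoded (grey) genes of each complex (x axis), 1 point a gene and 1 panel a double mutant; Rubisco includes its activase. Plastid genes lie below 0 and nuclear genes on either side of it in ddm1nrpd1 and ddm1nrpe1. In ddm1cmt2, 31 of 44 nuclear genes rose (18.4% of all loci) while 32 of 45 plastid genes fell (17.7% of all loci).

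Other plastid transcripts were read to see how far the falls extended. Of 61 tested plastid loci outside the 45 genes and the ribosomal RNA, 58 fell in ddm1nrpd1, 57 in ddm1nrpe1 and 40 in ddm1cmt2 (medians -4.53, -4.45 and -0.68). Among them ATCG01120 and ATCG01130, which follow ndhH in identifier order, had -8.06 and -10.01 in ddm1nrpd1. Of the 4 plastid ribosomal RNA loci, 0 fell in ddm1nrpd1 and 0 in ddm1nrpe1 by edgeR's test (medians -0.43 and -0.32), with 2 and 0 at an unadjusted p under 0.05, while DESeq2 called 2 in each and limma-voom 0, and 2 fell in ddm1cmt2 (median -0.94). Their share of all counts was 0.279% ± 0.0410 in ddm1 against 0.201% ± 0.0499, 0.209% ± 0.0916 and 0.139% ± 0.00388 in ddm1nrpd1, ddm1nrpe1 and ddm1cmt2 (two-sided exact permutation p = 0.1, 0.4 and 0.1). Ribosomal RNA was lowest in ddm1nrpd1 replicate 1 and ddm1nrpe1 replicate 3 within those groups, the same libraries that were low in psbA and rbcL. Of 46 tested mitochondrial loci 19, 20 and 15 fell and 0 rose in ddm1nrpd1, ddm1nrpe1 and ddm1cmt2. Over all loci tested, 21.7%, 23.9% and 17.7% fell and 22.9%, 26.5% and 18.4% rose in the same order. Mitochondrial loci took 0.0550% ± 0.00426 of all counts in ddm1. Their share was 0.0181% ± 0.00204, 0.0213% ± 0.00580 and 0.0424% ± 0.00491 in the double mutants in that order (two-sided exact permutation p = 0.1 each, the smallest possible).

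Set against plastid ribosomal RNA in the same library, the 45 genes had 281 ± 47.6 reads per 100 ribosomal reads in ddm1 and 6.30 ± 0.693, 6.72 ± 1.57 and 222 ± 18.2 in ddm1nrpd1, ddm1nrpe1 and ddm1cmt2. By this ratio each library of each double mutant, ddm1cmt2 included, lay below each ddm1 library (two-sided exact permutation p = 0.1 each, the smallest possible), and the ddm1 ratio was 1.26 times that of ddm1cmt2. When the ribosomal counts replaced the library size, an alternative chosen after the data had been seen, 42 genes fell in ddm1nrpd1 and 43 in ddm1nrpe1, but 0 in ddm1cmt2 by edgeR's test (0 at an unadjusted p under 0.05). Of all 24839 loci, 594, 472 and 154 fell by the same fit in ddm1nrpd1, ddm1nrpe1 and ddm1cmt2, and 4361, 5460 and 7812 rose. The 0 in ddm1cmt2 thus stands beside few falls over all loci. In that fit the median member was -0.08 in ddm1cmt2 (range -0.75 to 0.85, 25 of 45 genes below 0, median SE 0.438), and -2.71 and -2.81 in ddm1nrpd1 and ddm1nrpe1. Ribosomal RNA is captured only incidentally in polyA libraries, so its counts are not a measure of plastid content.

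Nuclear genes that serve plastid transcription and RNA metabolism moved in both directions. Their counts stand beside 22.9%, 26.5% and 18.4% of all loci that rose, and 21.7%, 23.9% and 17.7% that fell, in ddm1nrpd1, ddm1nrpe1 and ddm1cmt2. Of 8 sigma factors and phage-type polymerases, 3 rose and 0 fell in ddm1nrpd1, 0 rose and 5 fell in ddm1nrpe1, and 3 rose and 1 fell in ddm1cmt2. The sigma factor gene SIGE went in opposite directions, at 72.05 ± 3.31 CPM in ddm1, 73.4 ± 9.76 in ddm1cmt2, 173 ± 18.4 in ddm1nrpd1 and 23.2 ± 2.87 in ddm1nrpe1 (1.27 ± 0.12 and -1.64 ± 0.12 in ddm1nrpd1 and ddm1nrpe1). SCA3, the phage-type polymerase of the plastid, was 0.37 ± 0.11 in ddm1nrpd1, -0.35 ± 0.11 in ddm1nrpe1 and -1.10 ± 0.12 in ddm1cmt2, each of which passed the test. Of 13 proteins bound to the plastid-encoded polymerase, 5 rose and 0 fell in ddm1nrpd1, 1 rose and 4 fell in ddm1nrpe1, and 1 rose and 1 fell in ddm1cmt2. PTAC7 was the member of that list which rose in all 3 (0.75, 0.79 and 0.66).

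Of 6 genes for plastid RNA decay, tailing and processing, 0 changed in ddm1nrpd1 by edgeR's test (1 at an unadjusted p under 0.05, 0 by DESeq2 and limma-voom), 6 fell in ddm1nrpe1 (from -1.04 to -0.34), and 1 rose and 2 fell in ddm1cmt2. Among them RIF10, the plastid polynucleotide phosphorylase, which trims and adds tails to plastid RNA, was -0.26 ± 0.13 in ddm1nrpd1 (adjusted p = 0.12) and fell in ddm1nrpe1 (-0.68 ± 0.13, 0.000545). Of 7 proteins that stabilise single plastid transcripts, 1 rose in ddm1nrpd1, 3 fell in ddm1nrpe1 and 4 rose in ddm1cmt2. HCF152, which is needed for transcripts of the psbB unit, was the gene that rose in ddm1nrpd1 (0.79 ± 0.11), and it rose in ddm1cmt2 too (0.94 ± 0.11).

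Loci outside the plastid were ranked by how closely their log2 level followed the median member over the 12 libraries. The closest was AT2G07080, annotated as a pseudogene, at 47.3 CPM in ddm1, 23.00 in ddm1cmt2, 0.804 in ddm1nrpd1 and 0.601 in ddm1nrpe1 (Pearson's r = 0.991). It was followed by the mitochondrial locus ATMG00370 (0.983), Cand7 (0.983), the pseudogene AT3G47330 (0.982) and TUB4 (0.980). The correlation does not reflect the size of the change. Mean CPM in ddm1 and ddm1nrpd1 was 2.30 and 0.215 for ATMG00370, 81.1 and 46.7 for Cand7, 57.5 and 39.6 for AT3G47330, and 393 and 188 for TUB4. Of 24729 loci compared, 369 had r over 0.9. These correlations are descriptions over 4 groups of libraries, in which the group means set most of the value. Reads from stretches of plastid DNA in the nuclear genome that match these genes cannot be told apart from plastid reads in the counts.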

How the data were processed

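The authors deposited 1 table of raw read counts per locus, whole numbers that sum to different totals per library, with CPM beside them. The deposited CPM equal each count divided by its column total, so no scaling between libraries is built in, and tests used the counts. Among the tools, the submitters' processing notes name Trimmomatic, TopHat, HTSeq and edgeR, with TAIR10 as the build and no roles or versions. Strand setting, handling of multiply matching reads and the annotation: not given in the sources used here, which bears on overlapping genes, on the copies of ndhB and on plastid DNA copies in the nucleus. Selection for poly(A) captures plastid RNA incompletely, so the counts do not measure the whole plastid transcript pool. The other 30 samples of the series were not analysed here.

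The counts entered edgeR 4.0.16 (R 4.3.3) after filterByExpr, which 24839 of 25069 loci passed. Libraries were scaled by TMM, and 1 model of 4 group means over the 12 libraries was fitted with robust quasi-likelihood dispersions. Adjusted p-values are Benjamini-Hochberg over all tested loci at 0.05, and each SE is the size of the log2 fold change over the square root of F. For shares of counts, groups were set against ddm1 by exact permutation tests, two-sided. DESeq2 1.42.0, limma-voom (limma 3.58.1), other scalings and filters, the replicate number as a block and leaving out each library were alternatives. Only the main edgeR fit, for ddm1nrpd1 against ddm1, was tested on simulated counts. Depth lay between 7.84 and 24.8 M counts a library. Libraries of a group correlated at r = 0.974 to 0.993, and their chi-square per degree of freedom ran from 3.77 to 24.0, above sampling noise, so the spread between libraries as well as depth limits precision.

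Per-library values are given for the member of each complex with the highest mean count over the 12 libraries and for the 3 lowest and 3 highest log2 fold changes of each comparison against ddm1; others with such values were added after their values were seen. From each gene list, examples are the members with the smallest adjusted p in ddm1nrpd1 against ddm1. The members and gene lists were chosen with earlier results of these data known. Symbols of nuclear genes come from the RefSeq gene table of TAIR10.1, from which no coordinates or lengths were taken. Lengths were not used, so levels are compared between libraries, and shares of reads per gene or complex are not corrected for length.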

Additional observations from a re-analysis of the deposited data

How the results depend on the processing

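In ddm1nrpd1 and ddm1nrpe1 the count of falls was 42 to 45 and 43 to 44 over all scalings, filters and tools tried, lowest with plastid ribosomal RNA counts as library size and 45 in ddm1nrpd1 with upper-quartile factors, DESeq2 or the 6 libraries alone, and 44 to 45 and 44 when single libraries were left out. In ddm1cmt2 the 32 falls became 18 with a 2-fold minimum, 0 with plastid ribosomal RNA counts as library size (chosen after the data were seen), and 25 (without ddm1 replicate 3) to 35 when single libraries were left out. With those ribosomal counts, only 154 of all 24839 loci fell in ddm1cmt2. No pairing of libraries by replicate number is stated. Deviations of same-numbered libraries from their group means correlated at -0.31 to 0.22. Libraries with different numbers were not compared in this way, so these values do not settle whether the numbers pair libraries. With the replicate block, 44 genes fell in ddm1nrpd1 and in ddm1nrpe1, 30 in ddm1cmt2, and 1 rose in ddm1nrpe1 against ddm1nrpd1. That count was 0 to 1 when single libraries were left out, with 1 without ddm1nrpd1 replicate 2 or ddm1nrpe1 replicate 1. Higher genes in ddm1cmt2 numbered 41 to 44 against ddm1nrpd1 and 39 to 44 against ddm1nrpe1, where 0 to 1 fell. In ddm1cmt2, petA was -0.0401 with upper-quartile factors, -0.00655 with scaling from nuclear loci, -0.00601 with no filter, -0.00548 with a minimum CPM of 1 in 3 libraries, and -0.0775 to 0.15 over the leave-one-out fits. The psbN value ran from -0.42 to 0.19. With ribosomal counts as library size, 25 of 45 members were below 0 in ddm1cmt2 (range -0.75 to 0.85). Among the genes chosen by the rule for per-library values, those that turned positive were atpH (0.11), psbM (0.18), psaB (0.10), ndhK (0.38), rbcL (0.51) and psbN (0.58). The cause of these moves was not tested. Few reads limit several members in ddm1nrpd1 and ddm1nrpe1, among them psaI, psaC, petG, petL, petN, ndhC, ndhE, ndhF, ndhG, ndhI and ndhH. The value of petG in ddm1nrpd1 was -3.14 without ddm1nrpd1 replicate 2.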
